A study of Homo sapiens with 4 samples.

Results

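The genes described here encode the proteins that carry folate into a cell, hold it there and spend it: the folate receptors FOLR1 and FOLR2, the carriers SLC19A1 and SLC46A1, the storage enzymes FPGS and GGH, and the folate-using enzymes TYMS and MTR. They are 8 of the 58735 gene identifiers in the deposited table, and all 8 were matched to an identifier. The set was chosen with measured values in view, namely the comparison of ICAM1-high with ICAM1-low in these same libraries, in which FOLR1 was already known to be among the largest differences. For that reason the members' levels and fold changes are given as a description, with no test. RNA-seq was carried out on A549 cells, an established human lung adenocarcinoma line with the labelled genotype wild-type, grown in DMEM with serum, with no drug or cytokine in the labels. The cells were stained for ICAM1, a surface glycoprotein to which leukocyte integrins bind, and separated by flow sorting into an ICAM1-high subset (2 libraries) and an ICAM1-low subset (2 libraries). Separate cultures or sorts are not named in the labels, so p-values measure only the spread of these libraries, which may be technical.

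Library totals were 16272591 to 17638647 counts. All 8 epithelial keratin and junction markers passed the expression filter. By the edgeR test described below, 6 were called higher in ICAM1-high and 2 lower (KRT7, log2 -1.05, and EPCAM, -0.63). PTPRC, CD3E, CD3D and MS4A1 had 0 counts in all 4 libraries. Of 10 leukocyte markers 2 passed the filter, with LAPTM5 called higher and ITGAM lower. Over all 16250 genes tested, 30.4% were called higher and 29.4% lower. CLDN7, an epithelial marker called higher, and LAPTM5 passed the filter through ICAM1-high alone, so nothing is read from their calls. At the only locus examined for line identity, the libraries labelled ICAM1-high went against the A549 label. A549 is known to lack CDKN2A, CDKN2B and MTAP through a homozygous deletion, and in the libraries labelled ICAM1-low CDKN2A had 0 and 0 counts, CDKN2B had 0 and 0, and MTAP had 1 and 8. In the libraries labelled ICAM1-high CDKN2A had 1009 and 1214 counts, CDKN2B had 174 and 182, and MTAP had 459 and 463. Both libraries of the subset were affected, so no difference between the subsets can be given without them. A difference between sorted subsets and a difference between cells of unlike origin cannot be told apart here, and this holds for every comparison below. Nor can more RNA per cell be told apart from more cells that carry the RNA.

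Folates are B vitamins that carry single carbon units. FOLR1 and FOLR2 are lipid-anchored surface receptors that bind folate tightly and bring it in by endocytosis, SLC19A1 (the reduced folate carrier) exchanges reduced folates against organic anions at neutral pH, and SLC46A1 (the proton-coupled folate transporter) works best in acid. Inside the cell FPGS adds a chain of glutamates that keeps folate from leaving and GGH removes it, TYMS uses a folate carbon to make thymidylate for DNA, and MTR passes one on to homocysteine to make methionine. FOLR1 is studied as a target of antibody-drug conjugates in ovarian and lung adenocarcinoma, and FOLR2 is best known from macrophages.

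The receptors are near relatives, so the letters that separate their reads are shown first. Over their longest open reading frames FOLR1 (774 bases) and FOLR2 (819 bases) were identical at 77.5% of aligned bases, and the longest run without a difference was 29 bases. The most alike window of 60 bases, from the GENCODE release 29 transcripts of FOLR1 (bases 582 to 641 of the open reading frame) and FOLR2 (bases 615 to 674), is printed below with its 2 differing bases in capitals.
FOLR1: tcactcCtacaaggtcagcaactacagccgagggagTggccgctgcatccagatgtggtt
FOLR2: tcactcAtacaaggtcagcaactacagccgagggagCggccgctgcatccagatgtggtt
Of 1639 distinct stretches of 50 bases in the FOLR1 transcripts, 22 (1.34%) also occurred in another gene. That gene was the pseudogene AP000812.3, which had 0 counts in every library. The reads counted for FOLR1 thus had little sequence in common with another counted gene.

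FOLR1 was detected in the libraries labelled ICAM1-high alone. FOLR1 (ENSG00000110195, chromosome 11, 72189558 to 72196323, plus strand, GRCh38) had 250 and 277 counts in the libraries labelled ICAM1-high and 0 counts in both labelled ICAM1-low. With counts divided by the library's TMM-scaled total and given per 1000000 (CPM), its level was 13.4 and 15.1, a mean of 14.2 ± 1.18 (SD, n = 2). The subsets did not overlap, and against a floor of 3 counts over the ICAM1-low subset FOLR1 was at least 147-fold higher in ICAM1-high. Of the 16250 genes tested, 12731 likewise did not overlap, so a lack of overlap, here or below, is common in these data. A count of 0 allows up to 0.192 and 0.196 CPM in the ICAM1-low libraries, and this limit covers counting error only. FOLR1 passed the expression filter through the ICAM1-high libraries, so it could not have come out equal. Per kilobase of exon, FOLR1 stood at the 68.9 and 71.8 percentile of the protein-coding genes with a count in the ICAM1-high libraries, 15828 and 15797 genes. It was therefore an mRNA of more than middling abundance there.

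The other receptor genes had at most 1 count in any library. FOLR2 (ENSG00000165457, chromosome 11, 72216601 to 72221950, plus strand) had 0 counts in all 4 libraries, which allows up to 0.161 to 0.196 CPM per library, and it was not tested. FOLR3, which encodes a secreted receptor, had 1, 0, 0 and 1 counts in the 2 ICAM1-high and the 2 ICAM1-low libraries, and IZUMO1R, the egg receptor for a sperm protein, had 0, 1, 0 and 0. Of the 4 genes of the family, FOLR1 was the one with more than 1 count in any library. Among 10 macrophage markers, CD163, MSR1, C1QA, C1QB, C1QC and VSIG4 were at 0 in all 4 libraries. CD14 was the single macrophage marker that passed the filter, with 343 and 343 counts in ICAM1-high and 146 and 146 in ICAM1-low.

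**Figure D1:**
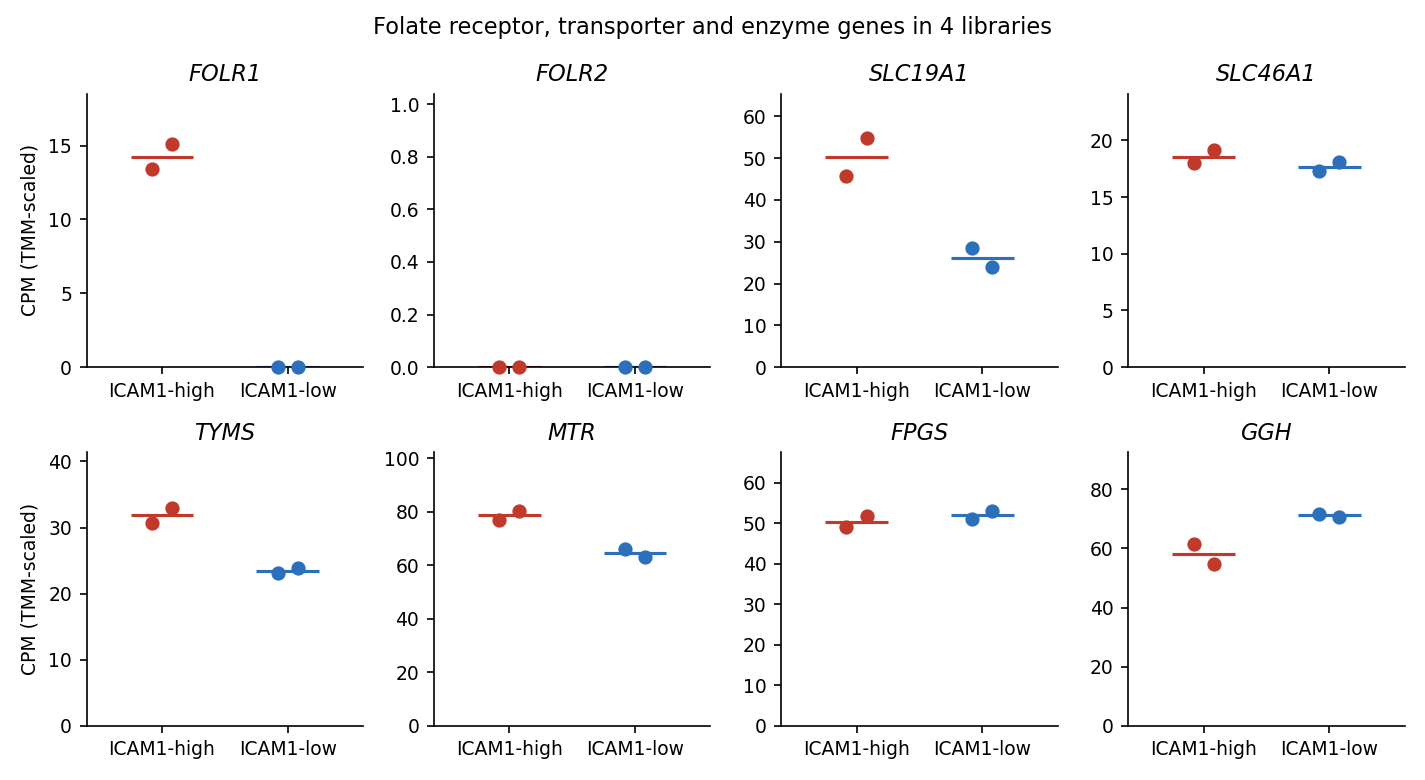
Level of each of the 8 genes in CPM after TMM scaling (vertical axis from 0, its own scale per gene) in the 2 ICAM1-high and the 2 ICAM1-low libraries. Points are libraries and lines are means of 2. FOLR1 is at 13.4 and 15.1 against 0 and 0, FOLR2 is at 0 throughout, and the points of SLC46A1 and FPGS overlap between subsets.

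The genes that flank FOLR1 did not share its pattern. Within 200 kb of FOLR1 lay 13 other protein-coding genes, of which 8 passed the filter. On the log2 scale their ICAM1-high minus ICAM1-low differences ran from -0.33 to 0.81, with a median of 0.29. By edgeR's quasi-likelihood test with Benjamini-Hochberg adjustment over all genes, 4 of the 8 rose, 0 fell and 4 did not pass an adjusted p of 0.05. By the same rule 30.4% of all 16250 genes tested were higher and 29.4% lower, so a call is common in this comparison. INPPL1, an inositol phosphatase gene 27.4 kb away, had 178.0 and 197.9 CPM against 139.4 and 138.4, a 1.35-fold rise. CLPB, a mitochondrial disaggregase gene 89.2 kb away, had the largest rise of the 8, 1.75-fold, from 25.9 and 24.4 to 40.5 and 47.6 CPM. LRTOMT, TOMT, FOLR2 and PHOX2A had 0 counts in every library. FOLR1 was the one gene of the interval with 0 counts in a subset and more than single counts in the other.

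**Figure D2:**
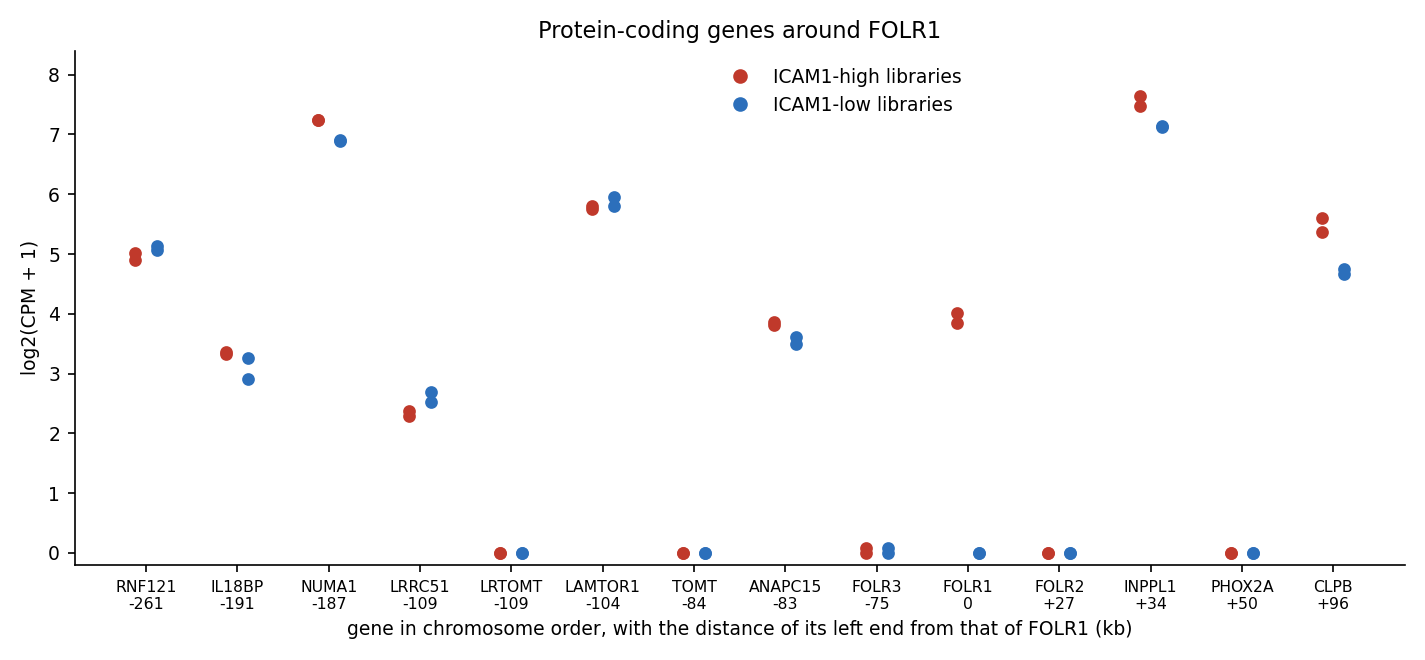
Level of FOLR1 and the 13 protein-coding genes within 200 kb, as log2(CPM + 1) on the vertical axis, in chromosome order with the distance of each gene's left end from that of FOLR1 in kb. Points are libraries. FOLR1 stands at 0 in ICAM1-low and near 4 in ICAM1-high, while the tested neighbours differ between subsets by less than 1 unit.

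The protein-coding genes whose levels over the 4 libraries were most like those of FOLR1 were SIX2, LRRC61, FMOD and MAGEA1. They lay at Euclidean distances of 0.20, 0.21, 0.22 and 0.26 in log2(CPM + 1), out of 13338 protein-coding genes compared. SIX2, a homeobox transcription factor gene, had 11.5 and 14.6 CPM in ICAM1-high and 0 in ICAM1-low. MAGEA1, a cancer-testis antigen gene, had 15.6 and 16.0 CPM against 1 count in each ICAM1-low library. The likeness rests on 4 libraries in 2 subsets, so it says little more than that these genes had similar levels in ICAM1-high and next to none in ICAM1-low. Some genes listed as fibroblast or endothelial markers were also higher in ICAM1-high, and others were not. The summed level of 10 fibroblast markers was 32.6 and 36.6 CPM in ICAM1-high against 5.24 and 6.52 in ICAM1-low, and that of 10 endothelial markers was 23.7 and 27.2 against 5.05 and 3.85. Of 6 fibroblast markers tested 4 were called higher, and of 4 endothelial markers 4 were, against 30.4% of all genes tested. Of those called, PDGFRB, LUM, FAP, CDH5 and ERG passed the filter through ICAM1-high alone, which favours a higher call, so nothing is read from their calls. PDGFRA, with 14 and 7 counts against 7 and 11, and THY1, with 16 and 18 against 9 and 10, were not called. THY1 too had passed the filter through ICAM1-high alone. COL1A1 alone made up 27.1 and 30 CPM of the fibroblast sum in ICAM1-high and 3.84 and 4.30 in ICAM1-low, and ENG alone 15.2 and 18.8 of the endothelial sum against 4.09 and 2.87. LUM had 43 and 56 counts against 3 and 5, FAP 17 and 25 against 0 and 1, PECAM1 76 and 57 against 14 and 12, CDH5 37 and 27 against 0 and 1, and ERG 37 and 52 against 0 and 0. The fibroblast markers that did not pass the filter, COL1A2, COL3A1, DCN and POSTN, had at most 2 counts in any library, and the endothelial ones, VWF, KDR, TEK, CLDN5, EMCN and TIE1, at most 5. Whether such cells were present, and what part they had in the FOLR1 level, was not tested.

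Of the 2 carriers, SLC19A1 was higher in ICAM1-high and SLC46A1 overlapped between the subsets. SLC19A1 (ENSG00000173638, chromosome 21, 45493572 to 45544411, minus strand) had 45.8 and 54.8 CPM in ICAM1-high against 28.4 and 23.9 in ICAM1-low, from 854, 1007, 444 and 367 counts. The subsets did not overlap, and the means of 50.3 ± 6.37 and 26.2 ± 3.16 CPM (SD, n = 2) differed by 0.94 on the log2 scale (SE 0.09), or 1.92-fold. SLC19A1 varied more within a subset than any other member that could be compared, with a coefficient of variation of 12.7% in ICAM1-high against 12.1% in ICAM1-low. The difference stayed between 0.80 and 1.12 over the 12 alternative settings tried. Its gene model shares 1401 exon bases (14.0% of its exons) with COL18A1, a collagen gene on the opposite strand. Whether the authors counted by strand is not stated in the sources used here, and reads of that stretch cannot be told apart. COL18A1 itself moved the other way and fell by 0.23 (SE 0.05, edgeR adjusted p = 7.54e-05).

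SLC46A1 (ENSG00000076351, chromosome 17, 28394756 to 28407197, minus strand) had 18.0 and 19.2 CPM in ICAM1-high and 17.3 and 18.1 in ICAM1-low. The ranges overlapped, and the difference of 0.07 (SE 0.11) on the log2 scale had a 95% interval of -0.14 to 0.28. That interval holds 0 as well as small differences in either direction, so the direction is not settled. The value is uncertain for another reason as well, since 56.4% of its exon bases lie opposite exons of SARM1, which encodes an NAD-cleaving enzyme of axons. SARM1 had 269 and 273 counts in ICAM1-high and 270 and 261 in ICAM1-low, close to the 335, 352, 271 and 277 counts of SLC46A1. After scaling, SARM1 had 14.4 and 14.9 CPM in ICAM1-high against 17.3 and 17.0 in ICAM1-low. That difference was -0.23 on the log2 scale (SE 0.11, edgeR adjusted p = 0.0787) and was not called. Within each library, where scaling cancels, the level of SLC19A1 per kilobase was 2.0 and 2.24 times that of SLC46A1 in ICAM1-high and 1.28 and 1.04 times in ICAM1-low. The ratio of FOLR1 to SLC19A1 was 1.78 and 1.67 in ICAM1-high and 0 in ICAM1-low. These ratios use the length of all exons. With the longest transcript as length, SLC19A1 to SLC46A1 was 4.27 and 4.79 in ICAM1-high against 2.74 and 2.22 in ICAM1-low, and FOLR1 to SLC19A1 turned to 0.838 and 0.788 in ICAM1-high, so which of FOLR1 and SLC19A1 was more abundant depends on the gene model. Of the 4 members that take up folate, FOLR1, SLC19A1 and SLC46A1 were detected in ICAM1-high, and SLC19A1 and SLC46A1 in ICAM1-low.

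Of the enzymes that retain and release folate, FPGS overlapped between the subsets and GGH was lower in ICAM1-high. FPGS (ENSG00000136877, chromosome 9, 127794597 to 127814327, plus strand), which adds the glutamate chain, had 49.1 and 51.7 CPM in ICAM1-high and 51.0 and 53.0 in ICAM1-low. The subsets overlapped, with a difference of -0.04 (SE 0.07) and a 95% interval of -0.18 to 0.09, and the sign turned to 0.13 when libraries were scaled by their size alone. GGH (ENSG00000137563, chromosome 8, 63015079 to 63039171, minus strand), which removes the chain in the lysosome, had 61.5 and 54.8 CPM in ICAM1-high and 71.8 and 70.7 in ICAM1-low. The means were 58.1 ± 4.74 and 71.3 ± 0.766 CPM (SD, n = 2), and all ICAM1-high values lay below all ICAM1-low values. The difference for GGH was -0.29 (SE 0.07) with TMM scaling, and shrank to -0.12 with library size alone. The ratio of FPGS to GGH per kilobase, which does not depend on scaling, was 0.636 and 0.752 in ICAM1-high and 0.565 and 0.597 in ICAM1-low. The ranges of that ratio did not overlap but were close. Neither FPGS nor GGH shared any stretch of 50 bases with another gene.

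The 2 enzymes that spend folate carbons on DNA and on methionine were both somewhat higher in ICAM1-high. TYMS (ENSG00000176890, chromosome 18, 657604 to 673578, plus strand), the thymidylate synthase gene and the target of fluorouracil and pemetrexed, had 30.7 and 33.0 CPM in ICAM1-high and 23.2 and 23.8 in ICAM1-low. The subsets did not overlap, and the means of 31.9 ± 1.59 and 23.5 ± 0.456 CPM (SD, n = 2) differed by 0.44 on the log2 scale (SE 0.09), or 1.36-fold. Over the 12 alternatives the difference ranged from 0.39 to 0.61. Exons of ENOSF1, on the opposite strand, cover 39.1% of the exon bases of TYMS. ENOSF1 levels were 68.5 and 73.3 CPM against 73.7 and 75.0, a difference of -0.07 (SE 0.06, edgeR adjusted p = 0.337).

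TYMS is transcribed mainly in cells about to copy their DNA, and most genes listed as markers of that phase were higher too. Of 20 S phase markers, all of which were tested, 18 rose, 0 fell and 2 did not pass, with a median of 0.95 on the log2 scale. Over all 16250 genes tested, 30.4% were called higher and 29.4% lower, with a median of 0.01. MCM2, MCM4 and MCM5, subunits of the replicative helicase, rose by 1.33, 1.17 and 1.63 (SE 0.06, 0.05 and 0.06). The summed level of the 20 markers was 1960 and 2010 CPM in ICAM1-high and 1100 and 1070 in ICAM1-low. The markers were listed with earlier results of these data known. In the thymidylate and deoxynucleotide list below, 4 genes rose and 5 fell of 10 tested. TK1, a thymidine kinase gene of that list, overlapped between the subsets and was not called. It had 97.6 and 110.2 CPM against 108.3 and 92.8 (log2 0.05, SE 0.06). The part of cell cycle phase in the TYMS level was not tested. The genes with levels most like those of TYMS were VASN, NFRKB, ATP13A2 and RPS6KA1, at distances of 0.085, 0.10, 0.11 and 0.11, and VASN had 30.7, 34.1, 24.0 and 22.9 CPM.

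MTR (ENSG00000116984, chromosome 1, 236795281 to 236903981, plus strand), the cobalamin-dependent methionine synthase, had 77.0 and 80.5 CPM in ICAM1-high and 66.2 and 63.2 in ICAM1-low. The subsets did not overlap, and the means of 78.7 ± 2.47 and 64.7 ± 2.09 CPM (SD, n = 2) differed by 0.28 on the log2 scale (SE 0.06). The difference was the smallest among the 4 members that were higher, and it stayed positive, between 0.24 and 0.46, over the 12 alternatives. MTRR, the reductase that restores spent MTR to activity, rose with it from 70.2 ± 1.01 to 105.2 ± 0.965 CPM (SD, n = 2; log2 0.58, SE 0.06, edgeR adjusted p = 6.05e-14). MTRR stood at 2.41 and 2.27 times MTR per kilobase in ICAM1-high and at 1.88 and 1.92 times in ICAM1-low, so this ratio was higher in both ICAM1-high libraries (4.42 and 4.18 against 3.45 and 3.53 with the longest transcript as length).

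Promoter windows of 250 bases before the transcription start were taken from RefSeq (GRCh38.p14), in which 5 of the 8 members had an entry. FOLR1, FOLR2 and GGH had none in that table. A set of 6 motifs was searched on both strands and are given with the share of 35116 promoters that hold them: GGGCGG (the GC box, 42.6%), CCAAT (32.0%), TATAAA (10.7%), TTTGGCGC (0.55%) and TTTCCCGC (1.39%), both of the E2F type, and TGATGNAA (3.14%), of the ATF4 type. TTTCCCGC occurred once each in TYMS and MTR and in none of the other 3 windows. The stretch of 30 bases around it is shown for TYMS and the whole window for MTR, because these are the 2 enzyme genes that were higher in ICAM1-high. Capitals mark TTTCCCGC, which reads GCGGGAAA on the printed plus strand, and in the MTR window also the CCAAT boxes, which read ATTGG where they lie on the other strand, and the GC box.
TYMS, chr18:657603-657632, plus strand: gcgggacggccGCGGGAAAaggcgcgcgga
MTR, chr1:236795031-236795280, plus strand: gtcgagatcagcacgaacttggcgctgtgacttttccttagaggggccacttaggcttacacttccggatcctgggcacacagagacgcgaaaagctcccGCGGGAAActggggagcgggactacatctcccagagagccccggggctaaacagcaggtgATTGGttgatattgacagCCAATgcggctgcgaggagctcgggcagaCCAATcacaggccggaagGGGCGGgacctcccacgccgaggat
The match lay 39 bases before the RefSeq start of TYMS and 150 before that of MTR. The GENCODE model of TYMS given above begins further upstream, so its match lies inside that model, and the windows of SLC19A1, SLC46A1 and FPGS likewise lie inside the gene spans given. SLC19A1 held 4 GC boxes, SLC46A1 held 1 and FPGS held 6 with 1 CCAAT. None of the 5 windows held TATAAA, TTTGGCGC or TGATGNAA. The G and C content of the windows was 60.4% in MTR to 82.8% in SLC19A1, above the median of 58.0% over all promoters in each of the 5. A match is a string of letters and shows neither a bound site nor a cause of a level.

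Per kilobase of exon, the order of the 8 genes in ICAM1-high was GGH (18.6 CPM per kb), TYMS (12.9), FPGS (12.8), FOLR1 (8.65), MTR (6.92), SLC19A1 (5.03), SLC46A1 (2.37) and FOLR2 (0). TYMS and FPGS overlapped there, and the other neighbours in the order did not. In ICAM1-low the order was GGH (22.8), FPGS (13.2), TYMS (9.5), MTR (5.69), SLC19A1 (2.62) and SLC46A1 (2.26), with FOLR1 and FOLR2 at 0. GGH thus led and SLC46A1 came last of the detected genes in both subsets, and FOLR1 was undetected in ICAM1-low and stood between FPGS and MTR in ICAM1-high. The places depend on the gene model. With the length of the longest transcript in place of all exons, SLC19A1 passed both FOLR1 and MTR in ICAM1-high (13.2 against 10.7 and 7.48 CPM per kb) and MTR in ICAM1-low (6.87 against 6.15), and FPGS passed TYMS in ICAM1-high (22.1 against 19.2).

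Of the 8 members 7 passed the expression filter. By the rule used for all genes, 4 of them (FOLR1, SLC19A1, TYMS and MTR) were higher in ICAM1-high, where 30.4% of 16250 tested genes were called higher, and 1 (GGH) was lower, where 29.4% were called lower. Of the 7, 5 did not overlap between the subsets, and nor did 12731 of the 16250 genes tested. The members were chosen from this contrast, so nothing is read from these counts. The remaining 2, SLC46A1 and FPGS, were not called. Scaling by library size alone moved the median difference of all genes up by 0.17 on the log2 scale, and the split of calls went from 4935 higher and 4771 lower to 6735 higher and 3124 lower. Under that scaling GGH was no longer called and SLC46A1 was called higher at 0.24.

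**Figure D3:**
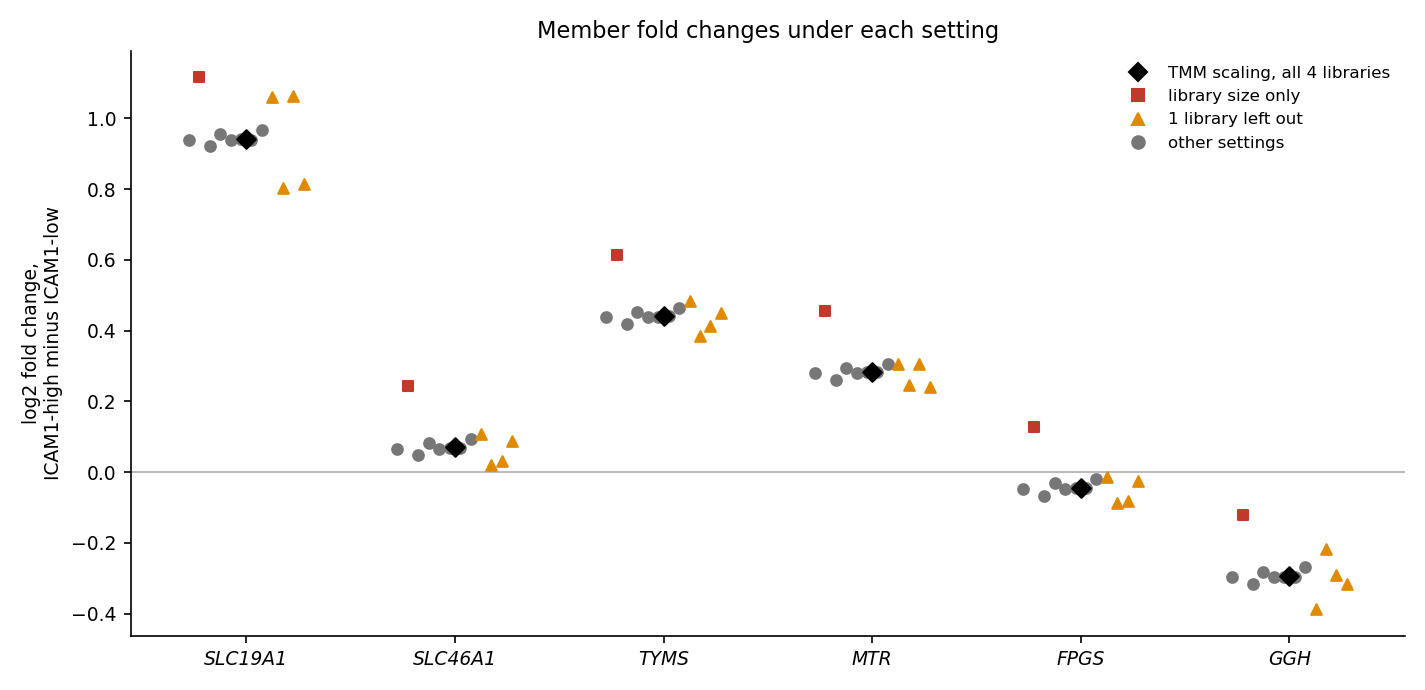
Log2 difference, ICAM1-high minus ICAM1-low, of the 6 members detected in both subsets under TMM scaling with all 4 libraries (black diamonds), library size alone (red squares), 1 library left out (orange triangles) and the other settings (grey circles). SLC19A1, TYMS and MTR stay above 0 and GGH below 0 throughout, while FPGS is above 0 with library size alone.

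Around the members, 66 further genes of folate transport and one-carbon metabolism were listed by role, and 55 of them passed the filter. By edgeR's test 15 rose and 26 fell in ICAM1-high, with a median of -0.13 against 0.01 over all genes tested. Of all genes tested, 30.4% were called higher and 29.4% lower. Of the 15, 1 (SARDH) passed the filter through ICAM1-high alone. With library size alone the split was 23 higher and 16 lower. Lower and higher genes thus both occurred, and the balance between them depended on the scaling.

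Next to FOLR1 and SLC19A1, the folate uptake and efflux list had 1 gene higher and 4 lower of 8 tested (2 and 4 with library size alone). The shares over all genes tested with TMM scaling were 30.4% higher and 29.4% lower. The efflux pump genes ABCC2, ABCC3 and ABCG2 fell by 0.97, 0.60 and 0.92 (SE 0.04, 0.04 and 0.08; edgeR adjusted p = 1.96e-33, 8.23e-23 and 2.14e-15), and ABCC2 went from 882.7 ± 0.969 to 451.0 ± 9.13 CPM (SD, n = 2). ABCC5, a further pump of the family that also exports folates and antifolates, moved the other way, from 19.6 ± 0.282 to 51.8 ± 2.02 CPM (log2 1.40, SE 0.08, edgeR adjusted p = 7.19e-24). LRP2, a kidney endocytic receptor that can take up folate bound to protein, had 23, 24, 14 and 10 counts and was not called.

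Next to TYMS, the thymidylate and deoxynucleotide list had 4 genes higher and 5 lower of 10 tested (5 and 3 with library size alone). For this list and the cytosolic one, the shares over all genes tested with TMM scaling were 30.4% higher and 29.4% lower. The ribonucleotide reductase subunits RRM1 and RRM2 rose by 0.55 and 0.43 (SE 0.05 and 0.06; edgeR adjusted p = 2.54e-15 and 2.98e-09). DTYMK, which phosphorylates the thymidylate that TYMS makes, and the mitochondrial thymidine kinase TK2 fell by 0.50 and 0.57 (SE 0.06 and 0.10; edgeR adjusted p = 2.0e-11 and 4.76e-07). In the cytosolic folate cycle 1 gene was higher and 3 were lower of 7 tested (2 and 1 with library size alone). SHMT1, which loads a serine carbon onto folate, rose by 0.28 (SE 0.07, edgeR adjusted p = 5.33e-04). MTHFD1, which interconverts folate forms in the cytosol, fell by 0.18 (SE 0.05, edgeR adjusted p = 8.28e-04) and was not called with library size alone, at -0.01.

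The 2 largest falls among the 55 tested pathway genes were in the mitochondrial list. In that list 3 genes were higher and 7 lower of 11 tested (4 and 4 with library size alone), against 30.4% and 29.4% of all genes tested with TMM scaling. Of the 3, SARDH passed the filter through ICAM1-high alone. MTHFD2, the dehydrogenase and cyclohydrolase that oxidises the folate carbon in mitochondria, went from 694.8 and 700.8 CPM in ICAM1-low to 167.7 and 168.4 in ICAM1-high and fell by 2.05 (SE 0.04, edgeR adjusted p = 1.38e-50). ALDH1L2, which burns the carbon to carbon dioxide, fell by 1.83, MTHFD2L by 0.67 and SHMT2, the mitochondrial partner of SHMT1, by 0.31 (SE 0.08, 0.11 and 0.05; edgeR adjusted p = 2.78e-32, 6.0e-07 and 5.43e-08). Within libraries the cytosolic enzyme gene MTHFD1 stood at 0.516 and 0.543 times MTHFD2 per kilobase in ICAM1-high and at 0.146 and 0.143 times in ICAM1-low.

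Of the 6 genes that build the purine ring, to which folate gives carbons, 0 rose and 3 fell (2 and 2 with library size alone). For this list and the methionine one, the shares over all genes tested with TMM scaling were 30.4% higher and 29.4% lower. GART, which holds the first of the folate-using steps, fell by 0.96 (SE 0.05), ATIC, which holds the second, fell by 0.30 (SE 0.05), and ADSL fell by 0.50 (SE 0.15), with edgeR adjusted p of 5.82e-29, 7.08e-08 and 0.00282. ADSL lost its call with library size alone, at -0.33, and without ICAM1-low replicate 1, at -0.41. Next to MTR, the methionine and cobalamin list had 6 genes higher and 4 lower of 13 tested (8 and 2 with library size alone). MMACHC, which strips the ligand from incoming cobalamin, had 285 and 279 counts in ICAM1-high and 38 and 66 in ICAM1-low (log2 2.18, SE 0.17, edgeR adjusted p = 1.83e-17). MMADHC, which directs cobalamin to MTR or to mitochondria, fell by 0.66 (SE 0.05, edgeR adjusted p = 3.12e-17), and MAT2A, which uses the methionine made, rose by 0.22 (SE 0.04, edgeR adjusted p = 2.88e-06).

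**Figure D4:**
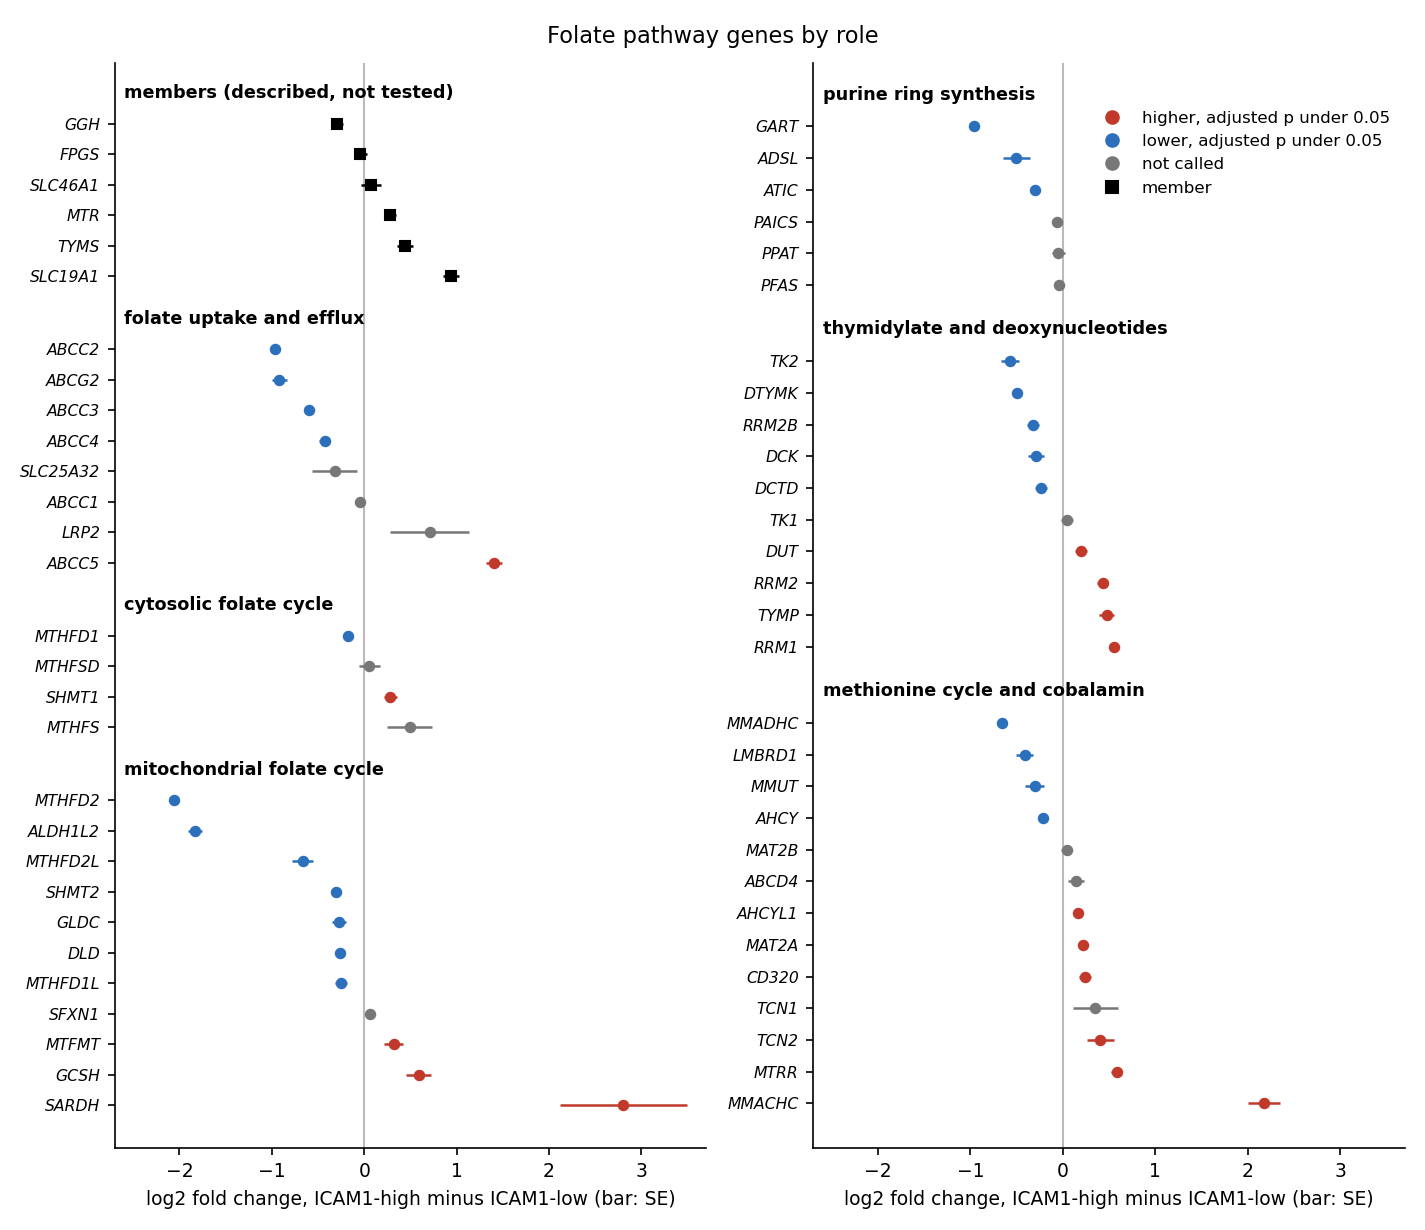
Log2 difference, ICAM1-high minus ICAM1-low, with its SE for the 6 members detected in both subsets (black squares) and the tested pathway genes by role, a few of which are left out (circles, red where higher, blue where lower and grey where not called by edgeR at an adjusted p of 0.05). SLC19A1 is the member farthest from 0, and MTHFD2 is the lowest gene drawn, at -2.05.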

How the data were processed

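The values the authors deposited are raw counts per gene, with a column for each of the 4 libraries, matched to samples by their descriptions; 0 columns of other samples were left unused. Trizol extraction and a SMARTER mRNA kit were used, per the labels' protocols, with FastQC 0.10.1 and the build GRCh38, per the submitters' processing notes. Aligner, counting program and strand setting: not given in the sources used here. All 58735 identifiers had a GENCODE release 29 model, used for positions, exon lengths and shared stretches, and 58207 had a symbol.

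From the counts, levels were computed as CPM with TMM factors of 1.059, 1.065, 0.940 and 0.944. The subsets were compared with edgeR 4.0.16 in R 4.3.3 (quasi-likelihood test, robust, no covariate) over 16250 genes that passed the default filter (minimum count 10, minimum total 15), and called at a Benjamini-Hochberg adjusted p under 0.05. The SE is the log2 fold change divided by the square root of the F statistic. The test was tried first on simulated counts. Alternatives were DESeq2 1.42.0, limma-voom (limma 3.58.1), other scalings and filters, a replicate block and each library left out.

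The members, the pathway lists and the marker lists (S phase, macrophage, other leukocyte, fibroblast, endothelial, epithelial) were chosen with earlier results of these data known. All members were named, with up to 4 called genes of each pathway list with the smallest adjusted p, the neighbours of FOLR1 within 200 kb, and the 4 genes nearest in level to FOLR1 and to TYMS. INPPL1 and CLPB were singled out among the neighbours, and LRP2 and TK1 within their lists, after their values were seen. A few genes of the lists are not reported here by name. No protein sequence was used here.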

Additional observations from a re-analysis of the deposited data

How the results depend on the processing

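A total of 12 alternatives was computed, 11 planned and 1 (at least 1 CPM in each subset) chosen after seeing the data. Library size alone changed most: genes lower went from 4771 to 3124, pathway genes from 15 higher and 26 lower to 23 higher and 16 lower, and members lower from 1 to 0. Of the 26 pathway genes that were lower, 16 remained so, 10 were not called and 0 reversed. With the replicate block, 4976 genes were higher and 4836 lower, and 15 and 26 pathway genes. The labels gave same-numbered libraries no more than a shared number. The correlation of their deviations was 0.0418 over 16250 genes, which with 2 libraries per subset cannot show whether they were paired. With 1 library left out, the remaining library was taken to vary as those of the other subset do: genes higher ranged from 4235 to 4535, genes lower from 4115 to 4621, pathway genes higher from 13 to 17 and lower from 23 to 27. DESeq2 called 3785 genes higher and 3774 lower. The members were chosen from this contrast, so how often they were called is no sign of stability. FOLR2, FOLR3 and IZUMO1R were at or below the floor of 3 counts, where a low level and none cannot be told apart.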

Other observations

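Some further folate genes had low counts. SARDH, a mitochondrial enzyme that frees a one-carbon unit from sarcosine, had 15 and 20 counts in ICAM1-high and 2 and 2 in ICAM1-low, and passed the filter through ICAM1-high alone. FTCD, a liver enzyme of histidine breakdown that feeds folate, had 7 counts over the ICAM1-high and 1 over the ICAM1-low libraries, a ratio of 5.86 with a 95% exact interval of 0.753 to 264. CUBN, a partner of LRP2 in endocytosis, had 1, 4, 6 and 1 counts in the 2 ICAM1-high and the 2 ICAM1-low libraries. SLC25A32, the mitochondrial folate carrier, had 57 and 55 counts against 59 and 58.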
